A study of Mus musculus with 10 samples.

Results

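The comparison described here is that of mouse liver 48 h after an overdose of acetaminophen with control liver at the same time. It rests on 2 of the 10 arrays of the series, chosen as those whose titles name the 48 h time point. All animals were female C57BL/6 mice aged 8 weeks that had been fasted for 24 h. The treated mice then received a single intraperitoneal dose of 350 mg/kg acetaminophen in phosphate-buffered saline, and the control mice received the saline alone. Each array carried the liver RNA of a control mouse labelled with Cy3 and that of a treated mouse labelled with Cy5. Control mouse 2 was paired with treated mouse 1 on the array called replicate 1 below, and control mouse 1 with treated mouse 3 on the array called replicate 3. The arrays at 24 h and 72 h, also 2 at each time and from other mice, serve here to show where 48 h differs. All 10 arrays of the series also enter the estimate of the spread behind each call at 48 h.

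Acetaminophen is a common analgesic. Cytochrome P450 enzymes of hepatocytes, above all those around the central vein of the liver lobule, oxidise a part of it to a reactive quinone imine, which glutathione neutralises until its supply runs out. Hepatocytes around the central vein then die, monocyte-derived macrophages and neutrophils enter the lesion, and surviving hepatocytes later divide to replace the lost tissue.

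Each value is the log2 of the treated over the control signal, positive where the treated liver was higher, with the standard error (SE) of the fit where one is given and n = 2 arrays. A gene is called when the adjusted p of limma, fitted over all genes and all 10 arrays, was below 0.05. Among 23971 genes, 7534 were called at 48 h, or 31.4% of those tested, 4301 of them higher (17.9%) and 3233 lower (13.5%). These 17.9% and 13.5% are the shares to set beside the list counts at 48 h from this fit. They do not apply to list counts from another setting or without an array. With median centring, described below, 2514 of 23971 genes were called higher and 382 lower. At least 2-fold differences were called for 1222 genes that were higher and 922 that were lower, and at least 4-fold differences for 128 and 225. All 7534 called genes had the same sign on replicate 1 and replicate 3, which a call itself all but requires. Between these arrays the correlation of log2 ratios was 0.857, taken across genes, so its points are not independent. The labels number the mice, so replicates are separate animals. The spread over genes was wider on replicate 3, with an SD of 0.704 against 0.551 on replicate 1. At 48 h, the share of probes well above background lay between 61.9% and 77.0% in the 4 channels, no probe was saturated, and the number of arrays limits the precision.

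**Figure D1:**
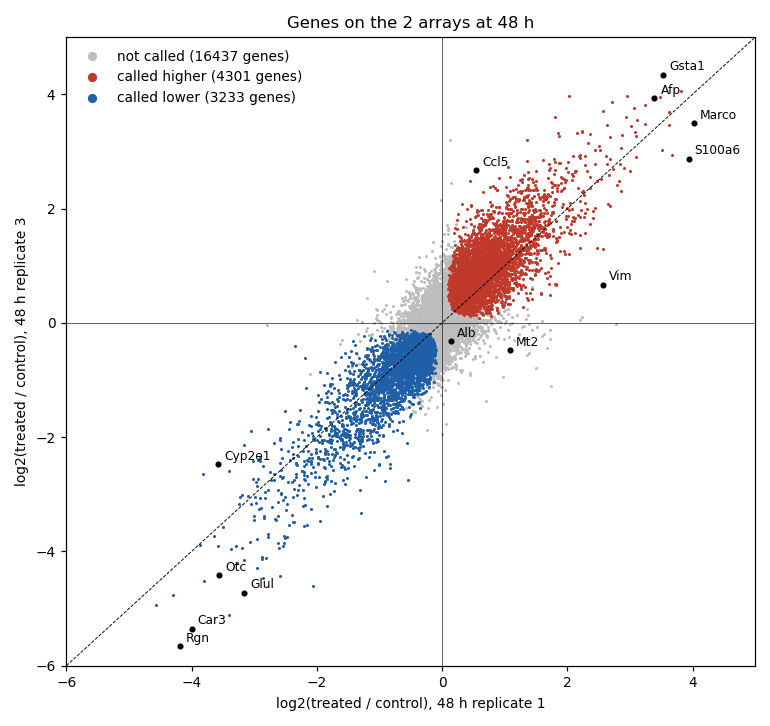
Each point is a gene, placed by its log2 ratio of treated over control on replicate 1 (x axis) and on replicate 3 (y axis) of the 48 h comparison, with called genes in red (4301 higher) and blue (3233 lower) and all others in grey. The dashed line marks equal ratios; the called genes lie in the upper right and the lower left, while Mt2 (1.08 and -0.48) is among the genes on which the arrays differ in direction.

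The treated liver was always in the Cy5 channel, so at 48 h alone a dye effect of a probe and the treatment cannot be told apart. Such an effect drops out of the differences between time points given below, as far as it was constant. With each array only centred on its median in place of loess, 2514 genes were called higher and 382 lower, so counts of lower genes depend on the loess step far more than counts of higher genes. Of 155 genes named in the text that were called, 45 were not called with median centring, 22 not without replicate 1 and 39 not without replicate 3. Those lost with median centring were, among hepatocyte and metabolic genes, Ahsg, Apoa1, Hrg, Plg, Nr1i3, Acox2, Csad, Slc27a2, Cox6c, Sdhb, Suclg1, Vegfa, Egfr, Cyp2a4, Tef, Aldoa, Hk2 and Pdk4. Among acute phase, immune and matrix genes they were C3, Hpx, Orm3, Saa2, B2m, H2-K1, Cd74, Igtp, Irf1, Ly6c1, Ccl5, Ccl9, Elane and Fn1. The others were Tk1, Mcm10, Bbc3, Asns, Herpud1, Syvn1, P4hb, Tcp1, Tln1, Neat1, Arntl, Cftr and Hbb-y. Without replicate 3 the call count at 48 h was 3406, and without replicate 1 it was 7293. In whole liver, fewer cells of a type and less RNA per cell cannot be told apart.

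The tissue label was checked with genes that hepatocytes express strongly. Albumin (Alb), transthyretin (Ttr) and apolipoprotein A1 (Apoa1) were well above background in both channels of both arrays. Alb, the main plasma protein, stood at 0.15 on replicate 1 and -0.32 on replicate 3, a mean of -0.09 ± 0.19 that was not called (adjusted p = 0.769). Apoa1 fell to -1.14 and -0.65, a mean of -0.90 ± 0.26 (adjusted p = 0.0321), a call lost without either array.

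The deepest falls were in genes of the hepatocyte. Rgn, which encodes the calcium-binding protein regucalcin (probe at chrX:20138932-20138991, mm9), read -4.19 on replicate 1 and -5.66 on replicate 3, a 30.4-fold fall (-4.92 ± 0.31, adjusted p = 7.28e-05). The sulfotransferase gene Sult2a8 (chr7:14996296-14996355) read -4.56 and -4.93, a 26.8-fold fall. Car3, a cytosolic carbonic anhydrase, read -4.00 and -5.35, and the P450 gene Cyp2c54 read -4.29 and -4.76. For all of these genes both livers of treated mice were far below their controls, and both channels were well above background. Also among the largest falls were Akr1c6, Cyp3a11, Otc, Inmt, Glul, Lhpp and Ces3a, at means between -4.26 and -3.68.

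**Figure D2:**
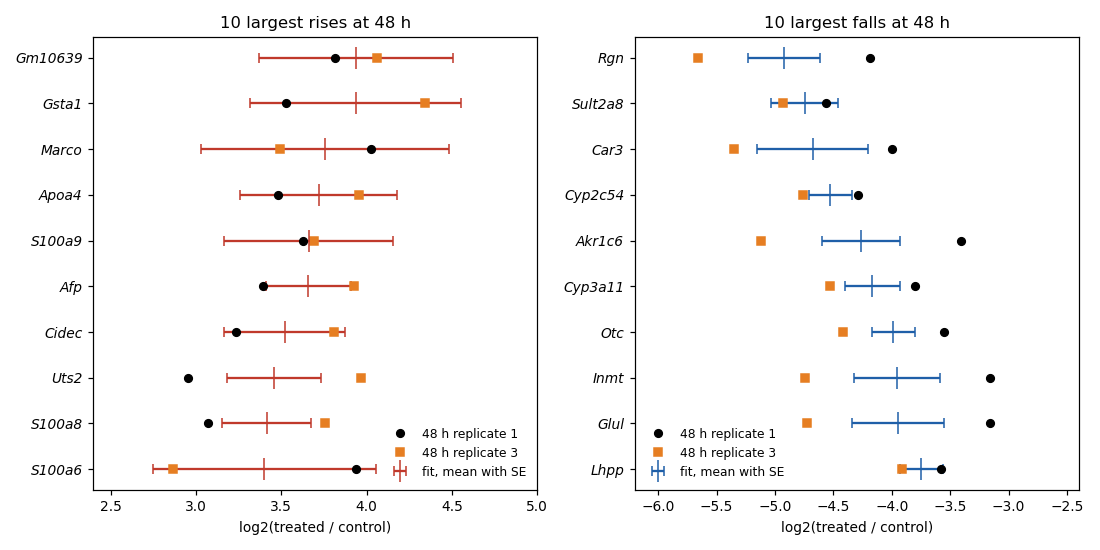
Log2 ratios of treated over control for the 10 genes with the largest called rise (left) and the 10 with the largest called fall (right), as black circles for replicate 1 and orange squares for replicate 3, with the mean of the fit and its SE as a bar. The rises lie between means of 3.40 and 3.94 and the falls between -3.75 and -4.92, and the arrays differ most in Akr1c6 (-3.40 and -5.12).

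The genes of the enzymes that activate acetaminophen were all strongly lower. Cyp2e1, the P450 most closely tied to formation of the reactive metabolite (chr7:147956922-147956981), read -3.58 and -2.48 and fell 8.14-fold (-3.03 ± 0.26, adjusted p = 0.000207). Cyp1a2 read -2.19 and -3.18, a mean of -2.68 ± 0.29. Cyp3a11 (chr5:146666237-146666296) read -3.80 and -4.53 and fell 17.9-fold (-4.17 ± 0.23, adjusted p = 5.02e-05). Each of these genes lay at least 2 log2 units below its control on both arrays.

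Of 36 tested genes for P450 and other phase I enzymes, 29 fell and 0 rose, with a median of -1.99 against -0.01 over all genes. Enzymes of conjugation, which make foreign compounds soluble, went the same way: 25 of 28 fell and 0 rose, with a median of -1.77. Papss2, which makes the sulfate donor for sulfotransferases, read -2.92 and -3.25 (-3.08 ± 0.12). Inmt, a methyltransferase, read -3.16 and -4.74 (-3.95 ± 0.37). With median centring, 18 phase I and 9 conjugation genes were called lower and 0 higher.

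Genes of both ends of the lobule were lower. Among 22 pericentral hepatocyte genes 18 fell and 0 rose (median -1.42). Glul, glutamine synthetase of the innermost pericentral cells (chr1:155756765-155756824), read -3.16 and -4.73, a 15.4-fold fall (-3.94 ± 0.39, adjusted p = 0.000377). Tbx3, a transcription factor of the same cells, read -2.94 and -2.39 (-2.67 ± 0.25). Periportal genes, which mark the cells farthest from the central vein, fell in 16 of 23 cases and rose in 2 (median -0.97), although with median centring 4 were called lower. The urea cycle gene Otc (chrX:9897267-9897326) read -3.56 and -4.42 and fell 15.8-fold, Ass1 of the same cycle read -2.28 and -2.84, and Cyp2f2 read -2.98 and -3.05. Ctsc, a lysosomal protease, went against them at 1.14 and 1.58. At 24 h the periportal list had a median of -2.10, and 9 of its 23 members were higher at 48 h than at 24 h while 3 were lower, against a background of 7.81% higher and 2.64% lower among all genes. With median centring 2 periportal members were higher than at 24 h and 0 lower, against 520 and 2 of all 23971 genes. Of the pericentral list, 0 members were higher than at 24 h and 3 were lower, none of them with median centring.

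Genes for secreted plasma proteins were lower as a group. In the coagulation and complement list 23 of 28 members fell and 0 rose (median -1.58). C8a, a part of the membrane attack complex, read -2.15 and -3.53, the thrombin inhibitor gene Serpind1 read -2.15 and -2.81, and plasminogen (Plg) read -2.56 and -2.36. Another 17 of 22 genes for secreted proteins and carriers fell and 0 rose (median -1.27). Among these, Serpina6, which binds glucocorticoids, read -3.17 and -4.15, fetuin A (Ahsg) read -2.23 and -2.59, and the histidine-rich glycoprotein gene Hrg read -2.09 and -2.46. On both arrays all of these genes were lower by at least 2 log2 units. Hepatocyte transcription factors fell in 12 of 20 cases and rose in 0 (median -0.50), including Nr1i3, the xenobiotic receptor CAR, at -1.47 and -0.98, a call lost without replicate 1. With median centring 7 of the coagulation and complement genes, 2 of the secreted and carrier genes and 1 of the transcription factors were called lower. Without replicate 3, 10 secreted and carrier genes and 6 transcription factors were called lower.

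Of 38 genes of amino acid breakdown 29 fell and 1 rose (median -1.26), and 9 were called lower with median centring. The proline dehydrogenase gene Prodh read -2.88 and -4.09, and Hpd of tyrosine breakdown read -3.07 and -3.83. The gene that rose was Csad, an enzyme of taurine synthesis, at 0.34 and 1.27 (0.80 ± 0.23, adjusted p = 0.0309), a call that was lost without replicate 3.

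Genes of bile acid synthesis and transport fell in 18 of 33 cases and rose in 2 (median -0.84). Slco1b2, an uptake transporter of the sinusoidal membrane, read -2.95 and -4.28, and Abcb11, the bile salt export pump, read -3.00 and -3.44. Acox2, which shortens the bile acid side chain in peroxisomes, rose to 0.80 and 1.10, a call lost without replicate 3. In this list 7 genes were called lower with median centring and 11 without replicate 3.

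Of 25 genes that make fatty acids 14 fell and 1 rose, led by the desaturase Scd1 at -2.85 and -2.50, Thrsp at -1.78 and -2.99 and the carbohydrate-responsive factor gene Mlxipl at -1.85 and -2.70. For cholesterol synthesis 11 of 25 genes fell and 0 rose, led by Ebp at -2.02 and -2.60. With median centring 7 fatty acid synthesis and 3 cholesterol synthesis genes were called lower, without replicate 3 the first list had 7, and without replicate 1 the second had 5. The fatty acid oxidation list, which also holds other genes of fat use, had 11 of 32 members higher and 4 lower. Of the 11, Plin2, Fgf21 and Pdk4 do not encode enzymes of oxidation. The lipid droplet coat gene Plin2 read 2.28 and 2.76 (2.52 ± 0.35, 5.74-fold), while Slc27a2, which activates long-chain fatty acids, read -2.20 and -2.72. Without replicate 3, 3 members of the oxidation list were called higher and 3 lower, and with median centring 4 and 0.

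Of 24 glycolysis and hypoxia genes 16 rose and 3 fell (median 0.70). Ldha, the muscle-type subunit of lactate dehydrogenase (chr7:54110937-54110996), read 2.45 and 2.77, a 6.11-fold rise (2.61 ± 0.19, adjusted p = 0.000129). Pkm, the pyruvate kinase that hepatocytes normally express little of, read 1.81 and 2.68 and rose 4.75-fold. The probe assigned to Pgk1 read 2.20 and 2.94, but it lies at chr3:57906830-57906894 (mm9), not on the X chromosome where the reference places the gene. Vegfa, the angiogenic factor, fell to -0.90 and -1.07, but read -0.46 and was not called with median centring. Genes of gluconeogenesis and glycogen fell in 13 of 23 cases and rose in 2 (median -0.47, but 0.03 with median centring, where 4 were called lower). The alanine transaminase gene Gpt2 rose to 1.70 and 1.78.

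Of 40 respiratory chain genes 21 fell and 8 rose (median -0.45), but with median centring their median was 0.22, with 0 called lower and 2 higher. Cox6c read -1.76 and -0.97, and Sdhb of complex II read -1.17 and -1.35. Cytochrome c (Cycs) rose to 1.04 and 2.24. At 24 h this list had a median of -0.93. Of the 40 members 18 were higher at 48 h than at 24 h and 0 were lower, against 7.81% and 2.64% of all genes. With median centring 1 member was higher, against 520 of all 23971 genes.

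A glutathione S-transferase cluster on chromosome 9 held the pair of genes with the largest rises, Gm10639 and Gsta1. Gsta1 (chr9:78090411-78090470) read 3.53 on replicate 1 and 4.34 on replicate 3, a 15.3-fold rise (3.94 ± 0.62, adjusted p = 0.00252). Its neighbour Gm10639 (chr9:78153243-78153302) read 3.81 and 4.06, and Gsta2 (chr9:78178856-78178915) read 2.24 and 2.31. Both treated livers were far above their controls for each of these genes. These genes are close copies, so their probes may share signal, and of 2 kept probes for Gm10639 the other averaged -1.14.

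NRF2 is a transcription factor that, in the presence of electrophiles, turns on genes of glutathione synthesis and antioxidant enzymes. Of 32 tested NRF2 targets, 17 rose and 4 fell (median 0.71), and without replicate 3, 11 were called higher, with the call of Gsta2 lost. Ferritin heavy chain (Fth1), which stores iron, read 2.86 and 2.30 (6.00-fold). Haem oxygenase 1 (Hmox1) read 1.51 and 1.85, though a second kept probe averaged -0.20. The probe assigned to Gstm1 fell to -2.19 and -2.76, but it lies on chromosome 5 while the reference places the gene on chromosome 3.

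Other members were chosen after their values were seen. The catalytic subunit of glutathione synthesis, Gclc, read 1.65 and 1.53, its modifier Gclm read 0.38 and 1.29, glutathione reductase (Gsr) read 1.43 and 1.41, and the quinone reductase gene Nqo1 read 0.61 and 1.68. The calls of Gclm and Nqo1 were lost without replicate 3, and the cystine importer gene Slc7a11, at 0.16 and 0.71, was not called. The pentose phosphate enzymes G6pdx, at 1.75 and 2.45, and Pgd, at 1.61 and 1.87, which supply NADPH, rose as well. By contrast, the 4 metallothionein genes, which bind zinc and copper, were not called. Mt2 read 1.08 on replicate 1 and -0.48 on replicate 3, and Mt1 read 0.77 and -0.41, so the arrays disagreed in direction, and without replicate 1 the list's median was -0.37. At 24 h both arrays had been high for Mt2, at 3.83 and 2.23, and the difference of 48 from 24 h was called (-2.72 ± 0.59, adjusted p = 0.0272). That call was lost with median centring, where 0 metallothionein genes were called lower than at 24 h.

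NRF2 binds an antioxidant response element whose core is TGACNNNGC. Within 250 bases before to 50 after the gene start, on either strand, 29.6% of the 27 NRF2 targets with a promoter in the RefSeq table (GRCm38.p6) held this core, against 12.5% of 27025 genes. The share was 28.6% among 14 members that rose and 30.0% among 10 that were not called. The promoters of the 2 called members with the largest change that hold the core are shown 5′ to 3′, with the core in capitals. They are those of G6pdx, which rose (chrX:74428831-74429130, minus strand), and of the peroxiredoxin gene Prdx1, at 1.44 and 2.18 (chr4:116685349-116685648, plus strand).
G6pdx: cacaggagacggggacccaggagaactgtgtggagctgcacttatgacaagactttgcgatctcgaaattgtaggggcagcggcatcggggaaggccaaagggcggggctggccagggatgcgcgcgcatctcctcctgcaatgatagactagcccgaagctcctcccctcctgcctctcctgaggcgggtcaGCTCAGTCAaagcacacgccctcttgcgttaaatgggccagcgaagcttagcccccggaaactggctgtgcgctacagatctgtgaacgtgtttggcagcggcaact
Prdx1: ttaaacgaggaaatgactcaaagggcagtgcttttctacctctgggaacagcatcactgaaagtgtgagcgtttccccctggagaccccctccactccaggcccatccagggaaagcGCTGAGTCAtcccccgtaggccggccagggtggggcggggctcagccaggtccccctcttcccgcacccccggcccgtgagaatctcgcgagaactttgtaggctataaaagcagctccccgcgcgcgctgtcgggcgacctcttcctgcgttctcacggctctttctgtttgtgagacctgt

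Genes of the p53 response, which halts division or triggers death after DNA damage, rose in 12 of 18 cases and fell in 2 (median 0.54). The cell cycle inhibitor Cdkn1a (chr17:29237377-29237436) read 2.23 and 3.36, a 6.95-fold rise (2.80 ± 0.27, adjusted p = 0.000312), although the lowest of its 3 kept probes averaged -0.07. The nuclease gene Aen read 1.18 and 1.21, and the cytokine gene Gdf15 read 1.19 and 0.92. Bbc3, which encodes the pro-apoptotic protein PUMA, went the other way at -1.02 and -1.33. Both with median centring and without replicate 3, 7 members were called higher, and the call of Gdf15 was lost without either array.

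The integrated stress response, which raises amino acid synthesis and transport through ATF4, was higher in 11 of 20 genes and lower in 1, though the number higher was 4 with median centring, 7 without replicate 1 and 3 without replicate 3. Psat1, an enzyme of serine synthesis, read 2.37 and 3.30, although a second kept probe averaged 0.33. The hormone gene Fgf21 read 1.44 and 2.51, and asparagine synthetase (Asns) read 1.30 and 1.89. The call of Asns was lost without either array, and that of Fgf21 without replicate 3. Of 20 chaperones of the endoplasmic reticulum 3 rose and 4 fell, with a median of -0.02 that was 0.50 with median centring and 0.04 without replicate 3. Syvn1 and Herpud1, which act in the disposal of misfolded proteins, fell to means of -1.01 and -0.99, the first call lost without replicate 1, while the disulfide isomerase gene P4hb rose to 0.88 and 1.14.

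Of 32 cytosolic ribosomal protein genes 23 rose and 0 fell, with a median of 1.00, the lowest member at 0.06 and the highest at 1.98. Rps19 (chr7:25670166-25670225) read 1.70 and 2.26 and rose 3.95-fold (1.98 ± 0.16, adjusted p = 0.000165), and Rpl5 read 1.18 and 2.17. Many ribosomal protein genes have processed copies elsewhere in the genome, so part of such a signal may come from another locus. Of 30 ribosome biogenesis genes 21 rose and 0 fell (median 0.67), led by Gar1 at 1.34 and 1.47 and Nhp2 at 1.13 and 1.60, both parts of the complex that modifies ribosomal RNA. Without replicate 3, 8 biogenesis genes were called higher, and with median centring 11.

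Of 24 splicing factor genes 14 rose and 0 fell. Hnrnpa1 read 1.87 and 2.80, but its second kept probe averaged 0.31. Of 30 proteasome subunit genes 19 rose and 0 fell (median 0.67), led by Psmd8 at 1.27 and 2.00. With median centring 4 splicing and 9 proteasome genes were called higher, and without replicate 3, 9 and 11. The cytosolic chaperones rose in 10 of 24 cases and fell in 0 (median 0.39, against 0.81 at 24 h). Of the 10, 8 were subunits of the TRiC chaperonin, which folds actin and tubulin: Cct3 read 0.99 and 1.79, Cct5 read 1.17 and 1.45, and Tcp1 read 0.74 and 1.88, its call lost without replicate 3. The heat shock genes Hsp90aa1 and Hspb8 were also called higher, while Hspa8, Hsp90ab1, Hspd1, Hspe1 and Hsph1 were not called. In this list of 24 genes 4 were higher and 5 lower than at 24 h, against 7.81% and 2.64% of all genes. These calls were all lost with median centring.

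The actin and tubulin cytoskeleton list had 27 of 35 genes higher and 1 lower (median 0.84), and 15 were called higher without replicate 1. The tubulin gene Tubb2a (chr13:34166116-34166145) read 3.11 and 3.56 and rose 10.1-fold (3.33 ± 0.36, adjusted p = 0.000484), Tubb6 read 2.68 and 2.88, and the actin gene Actg1 read 2.28 and 2.10. Talin 1 (Tln1) fell to -0.46 and -0.59, a fall that became 0.053 and was not called with median centring, nor without replicate 3. Members of such families resemble one another, so a probe may read more than 1 of them.

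Among the tested cell cycle genes, more of DNA replication than of mitosis were called. The mitosis list was less complete: of 34 listed G2 and mitosis genes 23 were tested, and Top2a, Bub1 and Kif11 were among those not tested. Its tested members were also dimmer, with summed control levels of 11.95 and 12.40 in log2 units, against 13.37 and 13.23 for DNA replication. The effect of this on the contrast was not tested. Of 36 listed DNA replication genes 33 were tested. Of these, 17 rose (51.5%) and 2 fell (6.06%), with a median of 0.35. Cdt1, which loads the replicative helicase onto origins, read 1.39 and 1.41 (1.40 ± 0.21, adjusted p = 0.00226). The helicase subunit genes Mcm6 and Mcm3 read 1.55 and 0.93, and 1.20 and 1.01. The genes that fell were Tk1, thymidine kinase, at -1.10 and -1.78, and Mcm10, at -0.46 and -1.29. With median centring 13 members were called higher and 0 lower, with Tk1 at -1.05 and Mcm10 at -0.43. Without replicate 1, 11 members were called higher and 4 lower, and without replicate 3, 10 and 1, with the call of Mcm10 lost.

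Of 23 genes of G2 and mitosis, 2 rose, 0 fell and 21 were not called, with a median of 0.02 that was -0.13 without replicate 1, where 3 were called lower, and -0.02 with no offset in the background correction. The kinase gene Aurka read 0.42 and 0.26, and the condensin gene Ncapd2 read 0.32 and 0.44, and both calls were lost without either 48 h array. The proliferation antigen Mki67, chosen after its value was seen, read 0.37 and -0.22, and the mitotic cyclin gene Ccnb1 read 0.10 and -0.34. For both the arrays lay on opposite sides of 0. Members of the G1 and growth control list rose in 8 of 23 cases and fell in 3. Egr1, an immediate early transcription factor, read 1.36 and 2.20. Myc read 1.21 and 1.30, and cyclin D1 (Ccnd1), which drives entry into the cycle, read 0.92 and 1.56. The growth factor receptor gene Egfr fell to -1.11 and -1.33, but read -0.71 and was not called with median centring, where 7 members rose and 0 fell.

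E2F factors control replication genes through sites such as TTTGGCGC, TTTCCCGC, TTTCGCGC and TTTGCCGC. At least 1 of these on either strand was present in the promoter window of 33.3% of the 27 replication genes with an entry, against 2.32% of all 27025 genes. A CCAAT box, bound by NF-Y, was present in 59.3% of them and in 37.9% of all genes. The cell cycle homology region TTTGAA, a feature of mitotic genes, was present in 75.0% of 20 G2 and mitosis genes, 11.1% of the replication genes and 18.1% of all genes. The E2F sites were present in 37.5% of 16 replication genes that rose, in 33.3% of 9 that were not called and in neither of the 2 that fell. The promoters of the 4 replication genes with the largest called change are shown 5′ to 3′ to compare Tk1, called lower with loess but not with median centring, with genes that rose, with E2F sites and CCAAT boxes of either strand in capitals. Their windows are chr11:117825965-117826264 (minus strand) for Tk1, chr8:122567765-122568064 (plus strand) for Cdt1, chr1:128359656-128359955 (minus strand) for Mcm6 and chr1:20820263-20820562 (minus strand) for Mcm3, all on GRCm38.p6.
Tk1: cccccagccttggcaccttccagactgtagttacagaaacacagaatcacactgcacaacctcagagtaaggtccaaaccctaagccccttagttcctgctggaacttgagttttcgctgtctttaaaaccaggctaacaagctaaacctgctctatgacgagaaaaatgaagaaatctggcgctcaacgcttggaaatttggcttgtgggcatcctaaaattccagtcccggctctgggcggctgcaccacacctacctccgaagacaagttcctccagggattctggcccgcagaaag
Cdt1: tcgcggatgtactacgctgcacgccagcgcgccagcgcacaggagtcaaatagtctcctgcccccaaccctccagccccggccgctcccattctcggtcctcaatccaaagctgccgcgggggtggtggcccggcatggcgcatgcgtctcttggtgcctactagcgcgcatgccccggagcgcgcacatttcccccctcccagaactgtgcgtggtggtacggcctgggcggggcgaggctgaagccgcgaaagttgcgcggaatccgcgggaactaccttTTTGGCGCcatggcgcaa
Mcm6: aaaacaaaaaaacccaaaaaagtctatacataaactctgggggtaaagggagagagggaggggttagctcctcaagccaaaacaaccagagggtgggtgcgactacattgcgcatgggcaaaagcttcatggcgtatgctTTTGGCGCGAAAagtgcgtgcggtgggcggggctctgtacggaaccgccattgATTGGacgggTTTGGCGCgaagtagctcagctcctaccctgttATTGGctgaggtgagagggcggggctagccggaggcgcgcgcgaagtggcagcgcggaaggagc
Mcm3: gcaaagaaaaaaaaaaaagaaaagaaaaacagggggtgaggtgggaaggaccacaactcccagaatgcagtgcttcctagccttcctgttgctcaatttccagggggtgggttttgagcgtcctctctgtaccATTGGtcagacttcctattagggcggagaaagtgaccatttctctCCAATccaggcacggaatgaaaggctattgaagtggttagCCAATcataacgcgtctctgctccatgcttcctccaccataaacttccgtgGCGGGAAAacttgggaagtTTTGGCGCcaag
Mcm6 held 3 E2F matches and 2 CCAAT boxes, Mcm3 held 2 and 3, Cdt1 held 1 and 0, and Tk1 held 0 of either. A match describes only the letters of the window. Here and for the NRF2 targets, only the first promoter listed for each gene was searched. The reference lists 32851 promoters for 27025 genes, so a site at another start of a gene would not be seen.

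**Figure D3:**
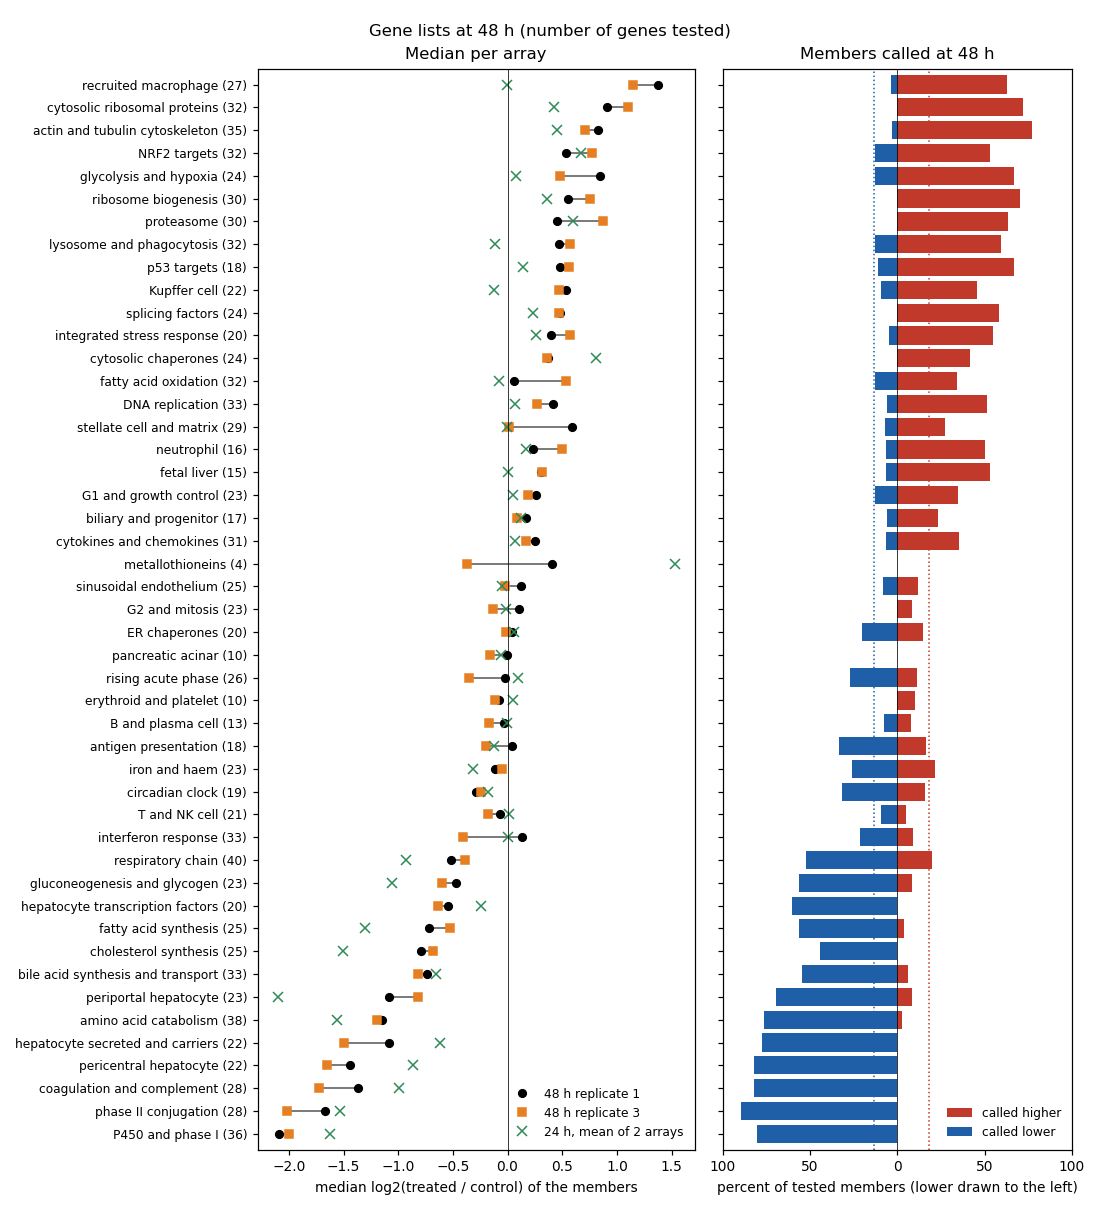
Left, the median log2 ratio of treated over control of the tested members of 47 gene lists, as black circles for replicate 1 and orange squares for replicate 3 at 48 h, with green crosses for the mean of both arrays at 24 h. Right, the percent of members called higher (red) and lower (blue, drawn to the left), with dotted lines at the shares over all genes, 17.9% and 13.5%; the P450 and phase I list is lowest, with a median of -1.99, and the recruited macrophage list is highest in this loess fit, with 1.16.

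Genes of macrophages that enter injured tissue had a median of 1.16, with 17 of 27 members higher and 1 lower. It was the highest of the 47 lists in the loess fit, while with median centring cytosolic ribosomal proteins, at 1.75, exceeded its 1.53. At 24 h their median had been -0.01. Of the 27 members 10 were higher at 48 h than at 24 h and 0 were lower, against 7.81% and 2.64% of all genes. With median centring 12 were higher, against 520 of all 23971 genes. Chil3, a chitinase-like protein of activated macrophages (chr3:105950485-105950544), read 3.51 and 3.03, a 9.64-fold rise (3.27 ± 0.35, adjusted p = 0.000496). The calcium-binding protein gene S100a6 read 3.94 and 2.87, and Anxa2 read 2.91 and 2.71. Galectin 3 (Lgals3) and the lipid receptor gene Trem2, named after their values were seen, read 2.83 and 2.48, and 1.60 and 1.27. Ly6c1 fell to -0.65 and -1.33, but its second kept probe averaged 0.24. The calls of Anxa2 and Ly6c1 were lost without replicate 3 and that of S100a6 without replicate 1. The summed channel level of the list, in log2 units, was 17.69 and 17.81 in the control livers and 18.39 and 17.86 in the treated livers. Some members, such as Fabp5, Lpl and Anxa2, are also expressed by other cells.

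The resident macrophages of the liver are Kupffer cells. Of 22 genes on their list 10 rose and 2 fell (median 0.50). The 10 include Cdh5, which is also on the endothelial list, and Hmox1, which is also on the NRF2 list. Summed levels were 14.07 and 14.16 in the control livers and 15.08 and 14.70 in the treated livers. Without either array, 4 members were called higher. Marco, a scavenger receptor (chr1:122371115-122371134), read 4.02 and 3.49, a 13.5-fold rise (3.76 ± 0.73, adjusted p = 0.00636), a call lost without either array. The defining genes Clec4f, at 0.10 and 0.04, and Timd4, at 0.00 and 0.05, were not called. Complement C1q genes, which other macrophages share, rose, with C1qa at 0.65 and 0.98 and C1qc at 0.84 and 0.80, calls lost without either array. Genes of lysosomes and phagocytosis rose in 19 of 32 cases and fell in 4. Prosaposin (Psap) read 1.55 and 1.63, a 3.02-fold rise, and the bridging factor Mfge8, which tags dying cells, read 1.30 and 1.67. In this list 11 members were called higher without replicate 1 and 10 without replicate 3.

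Of 16 neutrophil genes 8 rose and 1 fell (median 0.34). S100a9 and S100a8, the subunits of calprotectin, read 3.63 and 3.69, and 3.07 and 3.76. Lcn2, an iron-scavenging protein that hepatocytes also make, read 1.99 and 1.87, while the granule protease gene Elane read -0.14 and -0.48, a fall that became 0.13 and was not called with median centring, nor without replicate 3. The granule genes Camp and Ltf, which mark maturing neutrophils, were not called. Without replicate 3, 5 members were called higher. Summed levels were 15.4 and 15.2 in the control livers and 16.0 and 15.4 in the treated livers. The part of macrophage and neutrophil RNA in the other changes, the hepatocyte falls included, was not tested.

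In the list of cytokines and chemokines 11 of 31 genes rose and 2 fell. Ccl2, the main monocyte attractant, read 2.12 and 1.58 (1.85 ± 0.21, adjusted p = 0.000648), Ccl6 read 3.00 and 2.65, and the neutrophil attractant Cxcl1 read 2.09 and 1.85. Both livers were high for these 3 genes. Tnf, at 0.09 and 0.09, and Il6, at -0.04 and -0.22, were not called, nor were the chemokine genes Cxcl2, at 0.25 and 0.29, Ccl3 and Ccl8, while Ccl9 fell to -0.68 and -1.44, a call lost without replicate 3. Acute phase genes, which inflammation raises, did not follow: 3 of 26 rose and 7 fell, with a median of -0.11 that was 0.37 with median centring, where 0 were called lower, and 3 were called lower without either array. Complement C3 read -1.02 and -2.06, the haem carrier hemopexin (Hpx) read -1.24 and -0.93, and the serum amyloid gene Saa2 read -1.09 and -1.24, its call lost without either array, while the endotoxin receptor gene Cd14 read 2.12 and 1.83.

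Of 33 interferon response genes 7 fell and 3 rose, among them Rsad2 at 1.85 and 3.32, against Igtp at -0.77 and -1.28, its call lost without replicate 3, and Irf1 at -0.98 and -0.92. The list's median was 0.13 on replicate 1 and -0.41 on replicate 3, with 1 member called lower on replicate 1 alone and 13 on replicate 3 alone. Of 18 antigen presentation genes 6 fell and 3 rose. The class I genes B2m and H2-K1 read -1.57 and -2.52, and -1.59 and -1.81, and the class II invariant chain gene Cd74 read -0.99 and -1.17, its call lost without either array. With median centring the medians of both lists were positive, at 0.11 each, and 0 members were called lower. Of 21 T and NK cell genes, 1 rose and 2 fell. The one that rose, Ccl5, read 0.54 and 2.67, its call lost without replicate 3, and the T cell receptor subunits Cd3d, Cd3e and Cd3g were not called. Of 13 B and plasma cell genes, 1 rose and 1 fell. Summed levels of the T and NK list were 13.2 and 13.8 in the control livers and 12.8 and 13.5 in the treated livers, and those of the B and plasma cell list 11.4 and 11.6, and 11.5 and 11.7.

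Genes of stellate cells and matrix differed between the 2 arrays, whose mice, slides and scan days all differ. These sources of a difference cannot be told apart. The list rose in 8 of 29 cases and fell in 2, with a median of 0.59 on replicate 1 and 0.01 on replicate 3. Ccn2, a matricellular growth factor (chr10:24318281-24318340), read 2.20 and 2.14 (2.17 ± 0.14, adjusted p = 7.28e-05), and the basement membrane collagen gene Col4a1 read 2.29 and 1.57. Vimentin (Vim) read 2.57 and 0.67, a call lost without replicate 1. Fibronectin (Fn1) read -0.22 and -0.77, a call lost in 17 of 22 alternatives, with the value at 0.29 under median centring. Genes of smooth muscle and activated stellate cells, named after their values were seen, stood apart on replicate 1: Tagln read 2.77 against -0.03, Acta2 read 1.50 against -0.79 and Myl9 read 1.75 against -1.11. None of these last genes was called. Over all genes, 461 differed by more than 1 log2 unit between the arrays, and 19 lay past 0.5 in opposite directions. Without replicate 1, 5 members of the list were called higher and 3 lower.

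Of 25 endothelial genes 3 rose (12%) and 2 fell (8%), against 17.9% and 13.5% of all genes (median 0.08, but -0.02 without replicate 1). Lyve1, a receptor of sinusoidal endothelium, read 1.08 and 2.17, its call lost without replicate 3, and the junction gene Cdh5 read 1.24 and 1.46. Of 10 erythroid and platelet genes, the platelet chemokine gene Pf4 alone was called, at 2.11 and 1.78. In the pancreatic acinar list the amylase gene Amy2a5 read -0.62 and -0.46 and was not called.

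Afp, alpha-fetoprotein, the fetal counterpart of albumin (chr5:90937781-90937840), read 3.39 and 3.93, a 12.6-fold rise (3.66 ± 0.25, adjusted p = 9.7e-05). On the fetal liver list 8 of 15 genes rose and 1 fell, the latter Hbb-y, an embryonic globin, at -0.36 and -0.52 and with its call lost without either array. Without replicate 1, 5 members were called higher, and without replicate 3, 3. Of the 8, Pkm, Aldoa and Hk2 are glycolysis genes, with the calls of Aldoa and Hk2 lost without either array, and the fetal genes H19, Igf2 and Dlk1 were not called. The surface protein gene Cd24a read 1.02 and 1.67. Of 17 biliary and progenitor genes 4 rose (23.5%) and 1 fell (5.88%), against 17.9% and 13.5% of all genes. Tnfrsf12a, the receptor for the progenitor-stimulating cytokine TWEAK, read 2.87 and 3.29 (8.43-fold), and osteopontin (Spp1) read 1.73 and 0.49, a call lost without replicate 1. Cftr of bile duct cells fell to -0.36 and -0.47, a call lost without either array. Summed levels of the biliary list were 12.7 and 12.5 in the control livers and 13.7 and 13.5 in the treated livers.

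The remaining largest rises had varied roles. Apoa4, an apolipoprotein of fasting and lipid export, read 3.48 and 3.96 (13.2-fold). Cidec, which promotes large lipid droplets, read 3.23 and 3.81, the vasoactive peptide gene Uts2 read 2.95 and 3.97, and Ly6d read 3.25 and 3.48. For all of them the treated livers exceeded the controls by about 3 log2 units or more on both arrays.

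Iron and clock genes held some of the deep falls. Hamp2, a hepcidin gene, read -2.84 and -3.42 (8.77-fold). Of 23 iron and haem genes 5 rose (21.7%) and 6 fell (26.1%), against 17.9% and 13.5% of all genes. Their median was -0.14, but 0.31 with median centring, where 1 was called lower. Dbp, a circadian output factor, read -2.52 and -3.77, and Tef of the same family read -1.26 and -1.63, while Arntl, a core clock activator, read 0.57 and 1.68. The calls of Tef and Arntl were lost without replicate 3. In the circadian list 3 of 19 rose and 6 fell, and the hour of day at which livers were taken is not given in the sources used here.

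The comparison with 24 h asked what changed over the second day. Relative to 24 h, 1871 genes were higher at 48 h (7.81%) and 633 lower (2.64%). With median centring 520 were higher and 2 lower, so the decreases from 24 h and the list counts against 24 h depend on the loess step. Chil3 showed the largest increase, from 0.17 and -1.68 at 24 h to 3.51 and 3.03, a difference of 4.02 ± 0.50 (adjusted p = 0.00529). Afp, from 0.33 and -0.82 at 24 h, differed by 3.91 ± 0.35 (adjusted p = 0.00281), and Uts2 by 3.54 ± 0.39. For these genes both 48 h arrays lay far above both 24 h arrays. The largest decreases were those of Saa2, from 2.62 and 1.45 at 24 h to -1.09 and -1.24 (-3.20 ± 0.44), Sult2a7 (-2.96 ± 0.66) and Cyp2a4 (-2.83 ± 0.16). With median centring the differences of Sult2a7 (-2.54) and Cyp2a4 (-1.12) were not called. Without replicate 3 of 24 h, 941 genes were called in this contrast, without replicate 1 of 24 h 1513, and without replicate 3 of 48 h 935.

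Most genes called at both times had the same direction. There were 1714 such genes, whereas 130 went from lower at 24 h to higher at 48 h and 22 from higher to lower. Among the first, chosen after their values were seen, were the fatty acid carrier gene Fabp5, from -1.04 and -1.96 to 1.53 and 1.69, and Gpt2, from -0.88 and -0.64 to 1.70 and 1.78. Another was Suclg1 of the citric acid cycle, from -1.43 and -1.21 to 0.48 and 1.02. Those that went down included Cyp2a4, from 1.65 and 1.39 to -1.41 and -1.21, the acute phase gene Orm3, from 1.16 and 1.30 to -1.09 and -0.89, and the long noncoding RNA Neat1, from 1.88 and 1.31 to -0.81 and -1.14. At each time both replicates of these genes had the same sign. With median centring the 48 h values of Cyp2a4 (-0.45), Orm3 (-0.53) and Neat1 (-0.25) were not called. Without replicate 3 those of Fabp5, Suclg1, Orm3 and Neat1 were not called, and without replicate 1 those of Orm3 and Neat1.

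**Figure D4:**
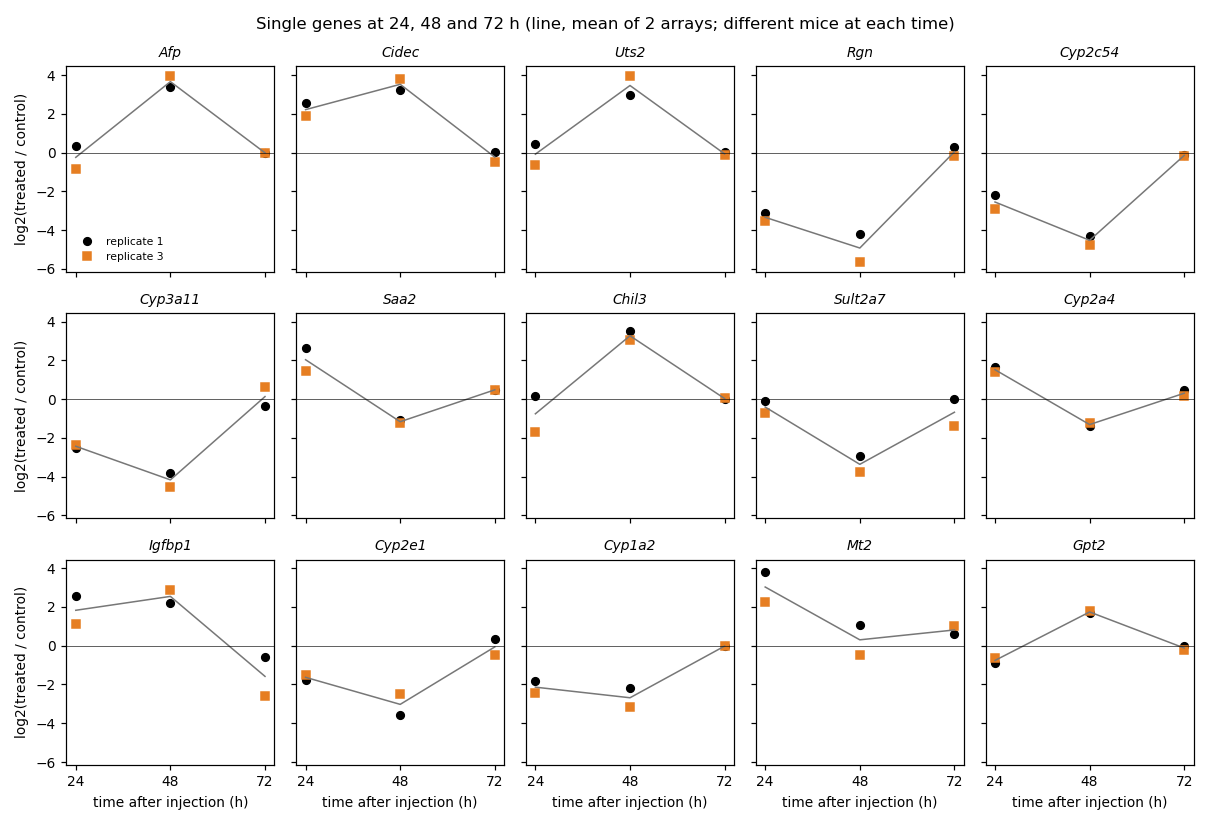
Log2 ratios of treated over control at 24, 48 and 72 h after injection for 15 genes, one panel each, with black circles for replicate 1, orange squares for replicate 3 and a grey line through the means; each time point comes from different mice. Afp and Chil3 stand above 3 at 48 h only, Rgn, Cyp2c54 and Cyp3a11 are lowest at 48 h, and Mt2 is high at 24 h.

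The comparison with 72 h asked how far the 48 h pattern had passed a day later, and here each pair of replicates shared a slide. At 48 h 2401 genes were higher than at 72 h (10%) and 1573 lower (6.56%). Of the 4301 genes that were called higher at 48 h, 2364 were also higher than at 72 h, and of the 3233 called lower, 1529 were also lower than at 72 h. Igfbp1, which binds insulin-like growth factors, showed the largest decrease after 48 h, from 2.21 and 2.88 to -0.59 and -2.57 at 72 h, a difference of 4.13 ± 0.73 (adjusted p = 0.00887). Cidec followed at 3.75 ± 0.50 and Afp at 3.67 ± 0.35. Rgn lay farthest below its 72 h level, from -4.19 and -5.66 to 0.27 and -0.19 (-4.96 ± 0.43, adjusted p = 0.00102), followed by Cyp2c54 (-4.38 ± 0.26) and Cyp3a11 (-4.30 ± 0.33). With median centring the differences of Igfbp1 (4.88) and Cyp3a11 (-3.60) were not called. Within the slide of replicate 1 the difference for Rgn was -4.46 and within that of replicate 3 it was -5.47. Without replicate 1 of 72 h, which had the lowest share of probes above background in the treated channel (44.6%), 1596 genes were called, without replicate 3 of 72 h 1928, and without replicate 3 of 48 h 1911.

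By list, 22 of 28 coagulation and complement genes, 24 of 36 phase I genes and 20 of 28 conjugation genes were lower at 48 h than at 72 h, against 6.56% of all genes. With median centring 0, 2 and 1 of these members were called lower, of 16 genes in all. Among lists that rose, 21 of 30 proteasome, 18 of 32 ribosomal protein and 16 of 35 cytoskeleton genes were higher at 48 h than at 72 h, against 10% of all genes. With median centring 0, 0 and 3 of these were called higher, of 132 genes in all.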

How the data were processed

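Liver RNA of treated (Cy5) and control (Cy3) mice was hybridised to 10 Agilent 2-colour arrays, 2 of them at 48 h. Per the file headers, the authors used Agilent Feature Extraction 10.7.3.1; the deposited files hold spot intensity, background intensity, a log10 ratio and flags for each spot. The authors' deposited value table holds a score that equals 1.44 times the log10 ratio at every array. The gene lists, the members and the rules were chosen with earlier results of these data known.

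Mean spot signals were corrected for the median background with normexp (offset 50) and normalised by loess within arrays in limma 3.58.1 (R 4.3.3). Control spots (1377) had weight 0 and outlier spots (569 at 48 h) were left out. Of 39429 probes, 29611 passed the filter on dim probes, and the brightest stood for each of 23971 genes, 17602 of them named through RefSeq (GRCm38.p6). Probe coordinates are the files' (mm9), and their exon or UTR position was not analysed here. A linear model with a coefficient per time point was fitted over all 10 arrays (5 residual df), two-sided, with Benjamini-Hochberg adjustment at 0.05. Lists are described by counts and medians. Named genes are the 12 largest called rises and falls. For each list they are up to 3 called members with its majority and 1 against it. For a list without calls they are the members with the largest change. They also include the 3 largest called differences each way from 24 h and 72 h, tissue controls and activating enzymes. Other genes, such as Clec4f, Timd4, Tnf, Il6 and H19, were chosen after the values were seen, and not all are marked so where they appear. Some genes the rule names are not reported here. The code was tested on simulated data.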

Additional observations from a re-analysis of the deposited data

Results flagged for a closer look

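The effect of treatment differed between 48 h and 24 h for 2504 genes and between 48 h and 72 h for 3974 genes, by limma's test of the difference itself with Benjamini-Hochberg adjustment. Against 24 h, the largest tested increases were those of Chil3 (4.02 on the log2 scale), Afp (3.91) and Uts2 (3.54), and the largest decreases those of Saa2 (-3.20), Sult2a7 (-2.96) and Cyp2a4 (-2.83). Against 72 h, Igfbp1 (4.13), Cidec (3.75) and Afp (3.67) stood highest at 48 h, and Rgn (-4.96), Cyp2c54 (-4.38) and Cyp3a11 (-4.30) lowest. Both 48 h arrays lay on the same side of both arrays of the other time for each of these genes, which their choice as the largest called differences favours.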

How the results depend on the processing

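The count of 7534 genes at 48 h became 2896 with median centring and 3305 with only the 48 h arrays fitted, and ranged from 3406 to 7356 as single arrays were left out. The count of 2504 against 24 h became 522 with median centring, 1546 with offset 0, 1281 with the software's log ratio or the authors' table and 208 with only the time points compared, and ranged from 935 to 3329 without single arrays. The count of 3974 against 72 h became 148 with median centring and 2589 with only the time points compared, and ranged from 1596 to 4700 without single arrays. Fewer arrays leave fewer degrees of freedom, but the cause of these shifts was not tested. Median centring also moved the all-gene median of the 24 h contrast to 0.21 and the share of higher calls at 48 h from 57.1% to 86.8%. It turned Aars to 0.19, Elane to 0.13, Fn1 to 0.29 and Tln1 to 0.053, none of them called. Of 166 called named genes, 95 kept call and direction under every alternative. Replicate numbers are shared between times, but correlations of deviations ran from -0.12 to 0.29; with the number as a replicate block the counts were 7783, 2467 and 4044, and with slide as a random block 7501, 2702 and 4363. In 60 called genes the control and in 21 the treated signal was not above background on both arrays, so those folds rest on a bound on 1 side.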
